A study of Mus musculus with 36 samples.

Results

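Pax6, Neurog2, Neurog1, Eomes, Neurod1, Neurod4, Tbr1, Neurod2, Neurod6 and Prox1 are transcription factors that act in turn as dentate granule neurons are made. These 10 genes, a list chosen by name, were examined among 21938 protein-coding genes in ChIP-seq of mouse hippocampus and of neurospheres. Both Polycomb marks were measured, H2AK119ub1 (ubiquitylated histone H2A, placed by PRC1) and H3K27me3 (trimethylated histone H3, placed by PRC2), together with H3K36me2 (dimethylated histone H3, a substrate of KDM2B). Hippocampi were taken at postnatal day 0, and neurospheres were floating cultures of neural progenitors grown from such hippocampi with FGF2 and EGF for several passages. Control mice (Ctrl) were Kdm2b fl/+ or Kdm2b fl/fl, so they carried at least 1 floxed allele too. Conditional knockout mice (cKO, Kdm2b Emx1-ΔCxxC) lacked the exon that encodes the CxxC zinc finger of KDM2B, which binds unmethylated CpG DNA and brings a PRC1 complex to it. Emx1-Cre acts in progenitors of the dorsal telencephalon, so vessels, microglia and interneurons of the dissected hippocampus keep the intact allele. Each mark, source and genotype had 2 libraries, 24 in all, and the question was how loss of the CxxC domain bears on the 3 marks at these genes.

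In the dentate lineage, radial glia express Pax6, a paired-box homeodomain factor. Neurog2 and Neurog1, proneural factors of the basic helix-loop-helix (bHLH) family, start the neuronal programme, and the T-box factor Eomes (Tbr2) marks intermediate progenitors. Neuroblasts use the bHLH factors Neurod1 and Neurod4. The T-box factor Tbr1, the bHLH factors Neurod2 and Neurod6 and the homeodomain factor Prox1, which sets granule cell identity, belong to later neurons. Genes of this kind are known Polycomb targets in cells that do not yet, or no longer, express them.

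The promoters of 6 genes are printed because the results below differ most among them. RefSeq (GRCm38.p6) lists 300 bases for each, from 250 before the start to 50 after it, and all 10 genes were matched. Capitals mark each CG, the dinucleotide that an unmethylated-CpG-binding zinc finger reads, which has the same letters on both strands. Neurog1, on the minus strand at chr13:56252131-56252430, holds 32 CG, a number reached by 9.52% of 32851 RefSeq promoters. Neurog2 (plus strand, chr3:127632886-127633185) holds 10, reached by 43.5%. Prox1 (minus strand, chr1:190170778-190171077, 113 bases from the gene start used here) holds 25, reached by 18.4%. Neurod2 (minus strand, chr11:98329596-98329895) holds 16, reached by 33.0%. Neurod6 (minus strand, chr6:55681214-55681513) holds 3, reached by 76.7%, and Neurod4 (minus strand, chr10:130280205-130280504) holds 4, reached by 68.6%. Of all listed promoters 94.6% hold at least 1 CG and the median is 7.
Neurog1: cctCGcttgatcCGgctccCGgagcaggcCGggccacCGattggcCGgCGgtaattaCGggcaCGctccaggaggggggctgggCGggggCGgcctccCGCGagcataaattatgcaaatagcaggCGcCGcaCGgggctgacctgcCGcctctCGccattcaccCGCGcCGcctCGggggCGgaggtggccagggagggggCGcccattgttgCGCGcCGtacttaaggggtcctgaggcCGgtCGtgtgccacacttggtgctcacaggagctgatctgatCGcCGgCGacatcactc
Neurog2: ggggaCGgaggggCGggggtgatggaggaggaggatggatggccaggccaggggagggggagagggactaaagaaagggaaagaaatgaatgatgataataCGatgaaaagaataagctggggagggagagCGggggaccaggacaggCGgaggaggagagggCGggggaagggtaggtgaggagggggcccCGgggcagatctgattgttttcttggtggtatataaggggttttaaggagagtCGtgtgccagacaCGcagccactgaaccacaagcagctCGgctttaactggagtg
Prox1: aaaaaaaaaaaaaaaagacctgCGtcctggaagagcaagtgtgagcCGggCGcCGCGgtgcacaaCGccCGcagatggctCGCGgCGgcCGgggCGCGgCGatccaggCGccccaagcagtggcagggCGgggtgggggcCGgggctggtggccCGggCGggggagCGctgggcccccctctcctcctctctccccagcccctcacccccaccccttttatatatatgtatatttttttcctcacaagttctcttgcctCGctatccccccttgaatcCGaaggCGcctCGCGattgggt
Neurod2: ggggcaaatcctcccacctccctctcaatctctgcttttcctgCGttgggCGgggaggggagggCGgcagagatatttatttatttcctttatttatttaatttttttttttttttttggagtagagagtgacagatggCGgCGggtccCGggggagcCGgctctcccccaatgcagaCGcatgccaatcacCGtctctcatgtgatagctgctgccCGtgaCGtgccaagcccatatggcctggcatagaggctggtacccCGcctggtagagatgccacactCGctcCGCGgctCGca
Neurod6: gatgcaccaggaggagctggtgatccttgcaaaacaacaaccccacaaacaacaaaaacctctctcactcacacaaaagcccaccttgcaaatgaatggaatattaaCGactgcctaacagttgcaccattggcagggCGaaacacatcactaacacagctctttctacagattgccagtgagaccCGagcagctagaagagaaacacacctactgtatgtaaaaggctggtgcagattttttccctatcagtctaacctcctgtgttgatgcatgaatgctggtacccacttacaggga
Neurod4: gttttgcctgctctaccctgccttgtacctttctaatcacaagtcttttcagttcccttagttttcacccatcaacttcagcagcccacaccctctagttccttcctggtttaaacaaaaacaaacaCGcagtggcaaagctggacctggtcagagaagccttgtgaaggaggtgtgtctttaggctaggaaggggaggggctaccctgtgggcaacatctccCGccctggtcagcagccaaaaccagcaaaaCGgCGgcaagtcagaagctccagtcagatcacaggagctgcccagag

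In the 1 kb around the start Neurog1 had 89 CpG, Neurog2 84, Prox1 74, Neurod1 49, Eomes 47, Pax6 44 and Neurod2 40, whereas Tbr1 had 17, Neurod4 11 and Neurod6 9. Neurog1, Neurog2, Prox1, Eomes and Neurod1 met the definition of a CpG-rich promoter (GC above 50% and CpG at more than 0.6 of the number its base content predicts), as did 9735 of all 21938 promoters. Pax6 has 24 annotated starts, and the most CpG-dense of them, 7.229 kb into the gene, had 73 CpG.

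The files list islands, which are broad stretches that the caller SICER found enriched over input, and the reads counted in each. Islands held 987329 to 22021439 reads per library, which is not the sequencing depth, and they covered 1.37% to 9.06% of the genome in hippocampus libraries and 4.65% to 18.3% in neurosphere libraries. Both hippocampus H2AK119ub1 libraries with replicate number 1 were shallow, with 1015578 (Ctrl) and 987329 (cKO) counts. Hippocampus H3K27me3 cKO replicate 1 had an island at 4 of the 10 promoters, against 7, 7 and 9 in the other libraries of that group of 4. Over all promoters it had one at 14.0%, against 17.8% (Ctrl replicate 1), 12.3% (Ctrl replicate 2) and 25.8% (cKO replicate 2). Of these 4 libraries Ctrl replicate 2 held the fewest counts, 1681001, over 54.9 Mb of islands. Islands of these marks cannot show the deleted exon, so the genotype labels were not checked here. H3K27me3 islands lay at the promoters of Foxa2 (liver) and Myod1 (muscle) in all 8 libraries in hippocampus and neurospheres. Of the other muscle and liver markers, Myog had one in 0 of 4 hippocampus and 1 of 4 neurosphere libraries and Hnf4a in 3 and 4. Of 5 neural progenitor genes, Sox2, Vim and Fabp7 had none, while Nes had one in 1 of 4 hippocampus and 2 of 4 neurosphere libraries and Pax6, itself a member, in 4 and 3. Of the oligodendrocyte lineage genes, Olig2 had one in 4 of 4 hippocampus and 0 of 4 neurosphere libraries. Sox10 had one in 4 and 1, and Pdgfra in 4 and 4.

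Coverage is the share of a window that lies in islands, and the promoter is 2 kb on each side of the start. Groups of 4 values are given below in the order Ctrl replicate 1, Ctrl replicate 2, cKO replicate 1 and cKO replicate 2. ChIP-seq of bulk tissue cannot tell fewer cells carrying a mark from less mark per cell. The labels do not say whether the 2 libraries of a group come from separate animals or cultures, so p-values measure the spread between these libraries. With 2 libraries against 2, an exact permutation test (two-sided) cannot go below 0.333, and 120 such tests of coverage were made over 10 genes, 2 windows and 6 combinations of mark and source.

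**Figure D1:**
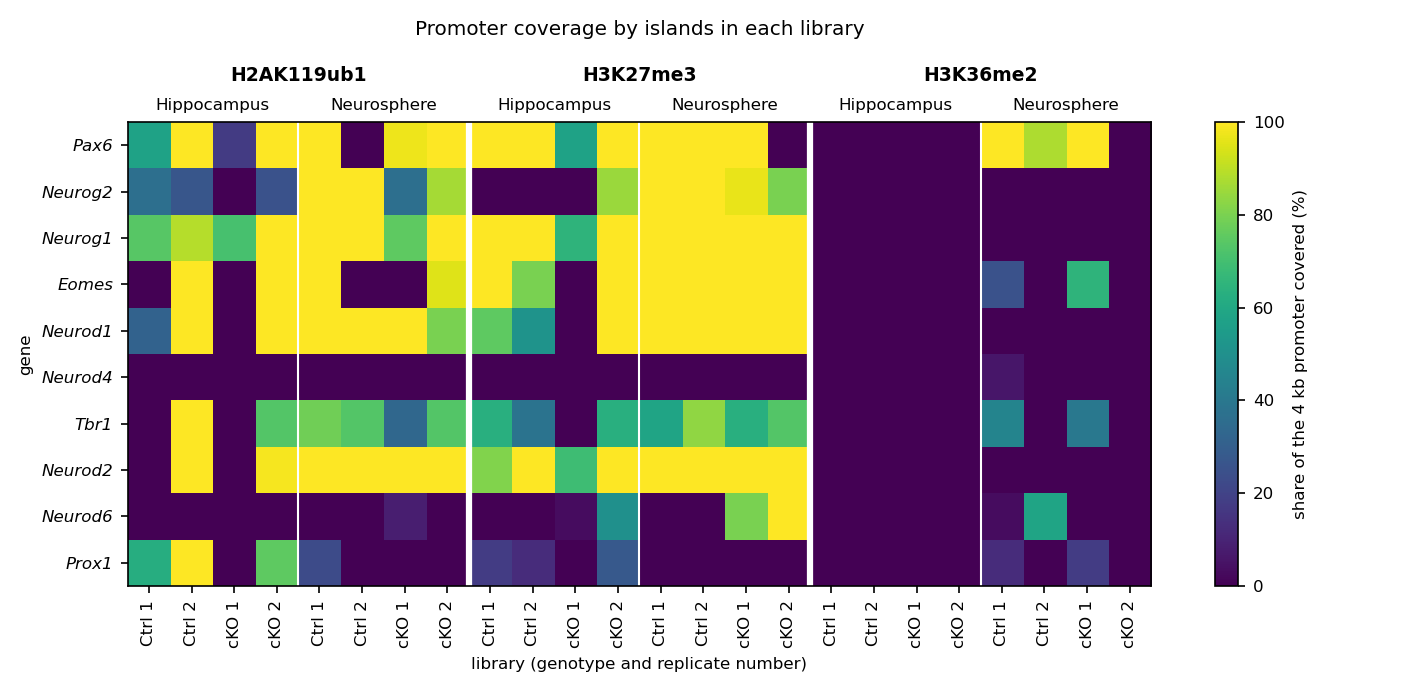
Share of each 4 kb promoter covered by islands (%, colour) for the 10 genes (rows, in order of the lineage) in the 24 libraries (columns, by mark, source, genotype and replicate number). Neurod4 is dark in all Polycomb columns, and Neurod6 is bright for H3K27me3 in the neurosphere cKO columns (80% and 100%) and dark in the Ctrl ones (0%). None of the promoters shown has H3K36me2 in hippocampus, where 3.77% to 6.18% of all promoters had an island.

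H3K27me3 was found at 9 of the 10 promoters in at least 1 library and H2AK119ub1 at the same number. Neurog1 and Neurod2 carried an H3K27me3 island in all 8 libraries of the mark, which was so for 5.75% of all promoters. Neurog1 also carried H2AK119ub1 in all 8, as 1.07% of all promoters did. Neurod4 had neither mark in any of the 16 Polycomb libraries, as had 53% of all promoters for H3K27me3 and 47.9% for H2AK119ub1. Between the libraries labelled hippocampus cKO replicate 2, 8 promoters had both Polycomb marks, and between those labelled hippocampus cKO replicate 1 the number was 2.

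Pax6, the radial glial factor, had H3K27me3 over its promoter in most libraries. In hippocampus the coverage was 100%, 100%, 57.5% and 100%, and in neurospheres 100%, 100%, 100% and 0%. The island was thus missing in a single library, neurosphere cKO replicate 2. The H3K36me2 library of the same label also had none there, whereas H3K36me2 covered 100%, 87.5% and 100% of the promoter in the other neurosphere libraries. H2AK119ub1 covered 57.5%, 100%, 17.5% and 100% in hippocampus and 100%, 0%, 97.5% and 100% in neurospheres, with overlapping genotypes in both. Over the 28.465 kb gene body (chromosome 2, 105668900 to 105697364, plus strand), the neurosphere H3K27me3 values 18.6% and 13.7% (Ctrl) stood above 8.79% and 0% (cKO), so the groups did not overlap (exact permutation p = 0.333), as for 5.78% of all gene bodies in that direction. The CpG-densest start of Pax6 behaved differently from the first one. H3K27me3 covered 1.8%, 41.8%, 0% and 100% there in hippocampus and 1.8%, 0%, 0% and 0% in neurospheres.

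H2AK119ub1 islands covered less of the Neurog2 promoter in cKO than in Ctrl libraries in both sources, but only narrowly so in replicate 2 of hippocampus. In neurospheres the promoter (gene on chromosome 3, 127633135 to 127635631, plus strand) was covered over 100% and 100% in Ctrl and over 36.65% and 86.65% in cKO. In hippocampus it was covered over 36.65% and 26.65% in Ctrl and over 0% and 25% in cKO. Both cKO libraries lay below both Ctrl libraries each time, by means of 38.4 and 19.2 percentage points. In hippocampus this rests on 25% against 26.65% in replicate 2 and on 0% in the shallow cKO replicate 1. The islands there were also different stretches. Those of Ctrl ended upstream of the start, at 127632600 and 127632200, and that of cKO replicate 2 lay inside the gene (127633601 to 127634600). Each comparison alone had the smallest p that 2 against 2 allows (exact permutation, p = 0.333), and non-overlap in this direction was found at 3.75% of all promoters in neurospheres and 0.483% in hippocampus. With genotype permuted within each source (36 splits), the mean difference of -28.75 points had the smallest p the design gives, 0.0556 (exact, two-sided). That p was reached in either direction by 0.137% of promoters, and 0.114% were lower in each source. Leaving out cKO replicate 1 gave -13.35 points in neurospheres and, since that library is shallow in hippocampus, -6.65 points there. Trimming islands to the same covered length in every library gave -81.7 points in neurospheres and -19.15 points in hippocampus. In hippocampus the difference vanished when the window was narrowed to 1 kb on each side (0.05 points), where the 4 values were 23.3%, 3.3%, 0% and 26.7%.

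In the body of Neurog2, H2AK119ub1 in neurospheres was 82.7%, 100%, 0% and 58.7%, without overlap between genotypes (p = 0.333 by exact permutation; 4.23% of gene bodies). In hippocampus the body values were 9.25%, 0%, 0% and 40.05%, which overlapped and were higher on average in cKO (15.4 points), and over both sources the body difference was -23.3 points (exact stratified p = 0.444). Within 50 kb of the start its islands summed to 37.3 and 47.7 kb (Ctrl) against 17.4 and 21.2 kb (cKO) in neurospheres. The island over the promoter was wider in cKO (5, 10.6, 11 and 11.6 kb; 3.6% of promoters with an island in all 4 libraries were higher without overlap) while the neighbouring islands of Ctrl libraries are not in that width. Its relative density, the island's counts per kb divided by the mean counts per kb over all islands of the library, was 1.58, 1.36, 1.03 and 0.885.

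H3K27me3 at the Neurog2 promoter was found in all 4 neurosphere libraries and in 1 of 4 hippocampus libraries. In hippocampus the promoter had 0%, 0%, 0% and 85%, and in neurospheres 100%, 100%, 96.65% and 80%. Only hippocampus cKO replicate 2 thus had an island there, with coverage inside the neurosphere range. In neurospheres both cKO values lay below both Ctrl values (-11.7 points, exact permutation p = 0.333; 5.34% of promoters). The domain around the gene was shorter too: islands covered 62.3, 53.9, 40.6 and 35.8 kb within 50 kb of the start. The island over the promoter was 57.8, 14.8, 9.8 and 13 kb wide, and 18.1% of promoters with an island in all 4 libraries were narrower in cKO without overlap. Relative density overlapped (1.62, 2.06, 1.93 and 1.54).

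**Figure D2:**
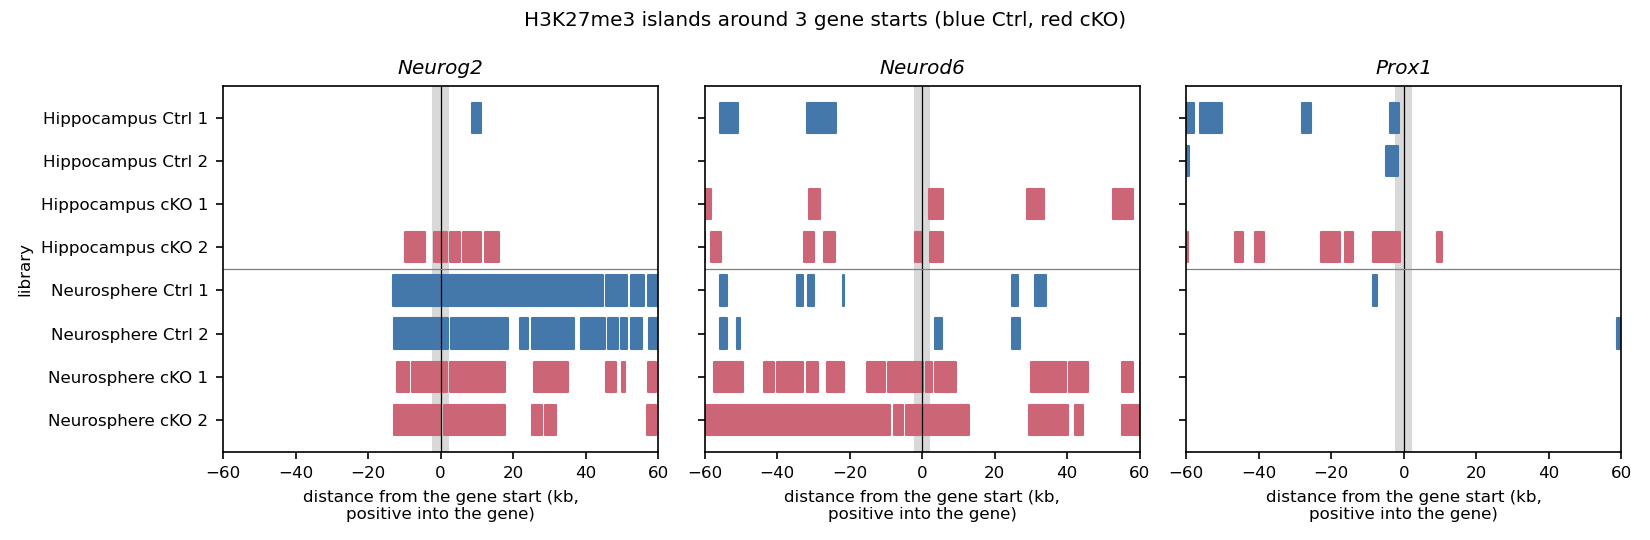
H3K27me3 islands (boxes, blue Ctrl and red cKO) in the 8 libraries (rows) within 60 kb of the starts of Neurog2, Neurod6 and Prox1; the horizontal axis is the distance from the start in kb, positive into the gene, and the grey band is the promoter. The neurosphere domain at Neurog2 covers 35.8 to 62.3 kb within 50 kb of the start, islands over Neurod6 are seen in cKO rows, and Prox1 has islands next to its start in 3 hippocampus libraries.

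Neurog1, the other proneural factor, was among the most constantly marked members. Promoter H3K27me3 was 100%, 100%, 65% and 100% in hippocampus and 100% in all 4 neurosphere libraries, and its 1.686 kb body was fully covered in all 8. H2AK119ub1 covered 74.05%, 89.05%, 70.95% and 100% in hippocampus and 100%, 100%, 75% and 100% in neurospheres. Coverage of neither mark separated the genotypes. The neurosphere H3K27me3 island was 36.6, 30, 34 and 39.6 kb wide, and its relative density was 2.42, 2.04, 1.77 and 1.99, lower in both cKO libraries. Of 3401 promoters with an island in all 4 libraries, 25.3% were lower without overlap and 22.1% higher.

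Eomes, the intermediate progenitor factor, had H3K27me3 over 100% of its promoter in every neurosphere library and over 100%, 80%, 0% and 100% in hippocampus. Coverage did not separate the genotypes. Relative density was 1.22, 1.10, 0.840 and 0.738 in neurospheres, lower in both cKO libraries (exact permutation p = 0.333). Such non-overlap was common, with 25.3% of 3401 promoters lower and 22.1% higher. The Eomes island was thus the least dense of the 6 members that had an H3K27me3 island in all neurosphere libraries. H2AK119ub1 at this promoter was present in replicate 2 alone in hippocampus (0%, 100%, 0% and 100%) and was 100%, 0%, 0% and 95.3% in neurospheres.

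Neurod1, needed for granule cell differentiation, resembled Eomes in H3K27me3. Its promoter was covered over 75%, 51.25%, 0% and 100% in hippocampus and over 100% in all neurosphere libraries. The counts per kb of its neurosphere island were 164, 123, 66 and 46.8, against library means of 60.2, 52.3, 43.2 and 42.04 counts per kb, which gives relative densities of 2.73, 2.35, 1.53 and 1.11. The log2 ratio of cKO to Ctrl, -0.94, was the furthest from 0 among the 6 members. Lower density without overlap was found at 25.3% of 3401 promoters. The island was 7, 7.6, 7 and 27.4 kb wide, so that of cKO replicate 2 was wide and sparse, and the counts summed over its region overlapped between genotypes (1605, 1261, 721 and 1281). H2AK119ub1 at Neurod1 was 31.25%, 100%, 0% and 100% in hippocampus and 100%, 100%, 100% and 80% in neurospheres. Its neurosphere H2AK119ub1 island was 6.6, 10, 5 and 4 kb wide, narrower in cKO, a direction seen without overlap at 24.6% of promoters with an island in all 4 libraries.

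Neurod4, the other neuroblast factor, had no Polycomb island over its promoter or its 12.089 kb body. Only H3K36me2 touched it, over 5.98% of the promoter in neurosphere Ctrl replicate 1.

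Among the neuronal factors, Neurod2 carried the densest H3K27me3 in neurospheres, whereas in hippocampus Ctrl replicate 1 the Prox1 island was denser (relative density 0.933 against 0.846). Its promoter was covered over 81.2%, 100%, 68.8% and 100% in hippocampus and fully in neurospheres. The neurosphere relative density was 2.87, 2.77, 2.70 and 2.66, which placed it among the densest 1.32% to 2.57% of promoters with an island. The genotypes did not overlap, as for 25.3% of 3401 promoters in that direction, and differed by a log2 ratio of -0.073. The island was 49.8, 49.8, 41.6 and 41.8 kb wide, again lower in cKO, as for 18.1% of those promoters. In hippocampus relative density was higher in cKO (0.846, 0.987, 1.09 and 1.48), as for 24.7% of 1832 promoters. H2AK119ub1 covered 0%, 100%, 0% and 98.8% in hippocampus and 100% in all neurosphere libraries.

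Tbr1 had H3K27me3 over 63.2%, 38.2%, 0% and 63.2% of its promoter in hippocampus and over 58.2%, 83.2%, 63.2% and 73.2% in neurospheres. Neurosphere relative density overlapped between genotypes (2.60, 1.95, 2.17 and 1.25). The promoter island was 5.2, 6.2, 5.4 and 34.2 kb wide, so neurosphere cKO replicate 2 stood apart with a wide and sparse island. H2AK119ub1 was 0%, 100%, 0% and 73.2% in hippocampus and 78.2%, 73.2%, 33.2% and 73.2% in neurospheres.

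Neurod6, a factor of postmitotic excitatory neurons, had H3K27me3 in the cKO libraries of both sources and in no Ctrl library. In neurospheres its promoter (gene on chromosome 6, 55677822 to 55681263, minus strand) was covered over 0% and 0% in Ctrl and over 80% and 100% in cKO. In hippocampus it was covered over 0% and 0% in Ctrl and over 3.45% and 50% in cKO. Over the 3.442 kb body the values were 0%, 0%, 54.1% and 100% in neurospheres and 0%, 0%, 45.9% and 41.9% in hippocampus. The promoter differed by 90 points and 26.7 points (exact permutation p = 0.333 each), a direction without overlap at 3.43% of promoters in neurospheres and 3.62% in hippocampus. For bodies the shares were 6.51% and 6.76%. Over both sources the promoter difference was 58.4 points and the body difference 60.5 points, each with the smallest exact stratified p, 0.0556. This p was reached by 0.488% of promoters and 1.72% of bodies, and 0.324% of promoters were higher in each source. An island in all 4 cKO libraries and in none of the 4 Ctrl libraries was found at 12 of 21938 promoters (0.0547%) and 16 bodies (0.0729%). The hippocampal difference was the smaller and was 3.45 points without cKO replicate 2. When islands were trimmed to the same covered length in every library, both hippocampus cKO values became 0% while the neurosphere difference stayed at 90 points.

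Around Neurod6, the only protein-coding gene that its merged neurosphere H3K27me3 region of 112.8 kb overlaps, the mark covered 8.4, 4.2, 55.1 and 74.3 kb within 50 kb in neurospheres, several times more in each cKO library. The widest island, in neurosphere cKO replicate 2, spanned 89.8 kb. The Ctrl islands lay 21.5 kb and 3.66 kb from the start. In hippocampus the mark covered 8.0, 0, 11.6 and 11.6 kb, so the difference there was small. H2AK119ub1 was seen at the Neurod6 promoter in 1 of 8 libraries, over 8.45% in neurosphere cKO replicate 1, where H3K27me3 covered 80%.

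H3K36me2 at Neurod6 went the opposite way in neurospheres. Its promoter was covered over 3.45% and 58.45% in Ctrl and 0% in both cKO libraries (-31.0 points, exact permutation p = 0.333; 2.76% of promoters). Over the body the values were 23.2%, 54.1%, 0% and 0% (4.33% of bodies). The 2 Ctrl libraries thus differed from each other more than the lower of them did from cKO. Within 50 kb H3K36me2 covered 15.4, 26.1, 3.8 and 5.2 kb.

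Prox1, the granule cell identity factor, had many CpG and little H3K27me3. The mark covered 17.8%, 12.8%, 0% and 27.8% of its promoter in hippocampus, all of it upstream of the start in both Ctrl libraries, and 0% in all 4 neurosphere libraries. Within 50 kb it covered 5.0, 3.4, 0 and 21.2 kb in hippocampus and 1.2, 0, 0 and 0 kb in neurospheres. H2AK119ub1 was broader in hippocampus, over 62.2%, 100%, 0% and 75% of the promoter, than in neurospheres, where it covered 22.8% in Ctrl replicate 1 and 0% in the other 3 libraries. The library at 0% in hippocampus is the shallow cKO replicate 1, and the genotypes overlapped for both marks.

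H3K36me2, a mark of active and intergenic chromatin that Polycomb domains usually lack, had no island at any of the 10 promoters or bodies in the 4 hippocampus libraries. Islands were rare at promoters there, with 3.77% to 6.18% of all promoters having one, so their absence is not particular to these genes. In neurospheres 6, 2, 4 and 0 of the promoters had an island. Besides Pax6 and Neurod6, it covered 25.3%, 0%, 65% and 0% at Eomes, 45%, 0%, 40% and 0% at Tbr1 and 12.8%, 0%, 17.8% and 0% at Prox1. Neurog1, Neurog2, Neurod1 and Neurod2 had none. Neurosphere cKO replicate 2, which had no H3K36me2 at any of these promoters, had an island at 11.3% of all promoters, against 18.7% to 42.2% in the other 3 neurosphere libraries of the mark.

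Over the 10 genes the median cKO minus Ctrl difference in promoter coverage was -6.99 points for H2AK119ub1 and -9.65 points for H3K27me3 in hippocampus, and -6.18 and 0 points in neurospheres, beside a median of 0 over all promoters each time, where 47.9% (H2AK119ub1) and 53% (H3K27me3) of promoters had no island in any library. The means over the 10 genes, in the same order, were -10.8, -4.93, -4.42 and 2.58 points. Over all promoters the means were 1.43, 2.74, -1.28 and -1.29 points, and over CpG-rich promoters -0.19, 1.16, -4.78 and -3.06 points. Gene bodies gave -0.45, 0.66, -3.55 and 0 points. Promoters whose genotypes did not overlap were those of Neurog2 and Neurod6 only, over all 6 combinations of mark and source. These medians moved with single libraries. Without cKO replicate 2 the hippocampal H2AK119ub1 promoter median was -50 points and without Ctrl replicate 1 it was -45.6, and leaving out single libraries gave -50 to 19.8 points in all.

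**Figure D3:**
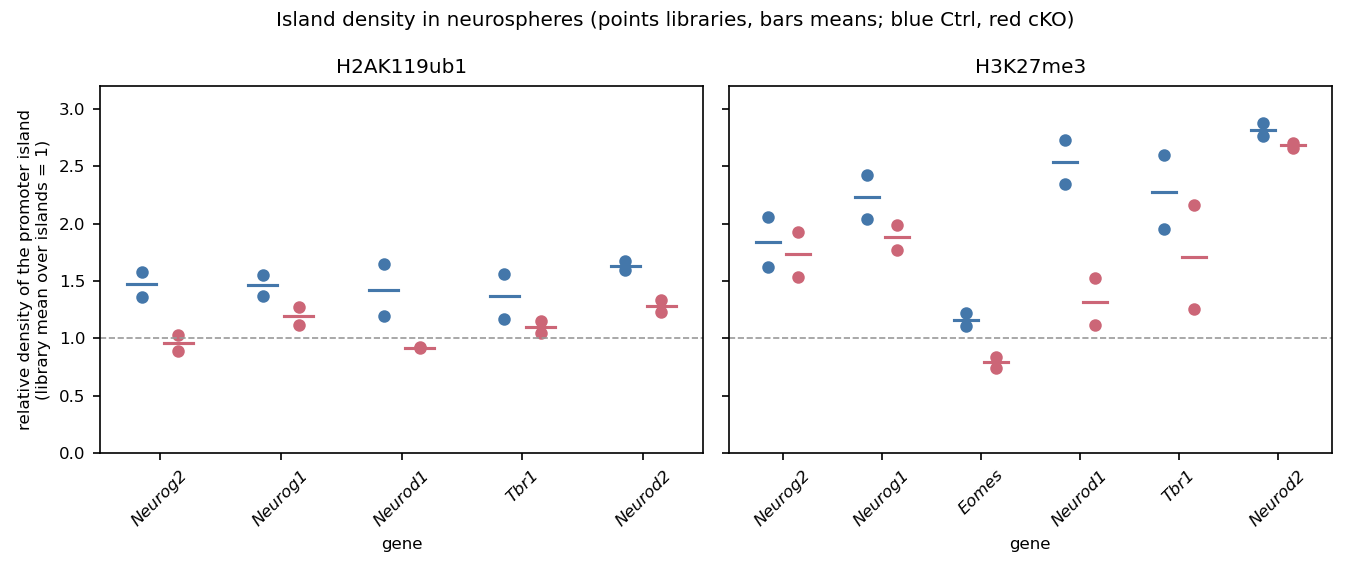
Relative density of the promoter island (counts per kb divided by the library mean over islands, dashed line at 1) in neurospheres, for the members with an island in all 4 libraries; points are the 2 Ctrl (blue) and 2 cKO (red) libraries and bars their means. Both cKO libraries lie below both Ctrl libraries at all 5 genes shown for H2AK119ub1, as at 30.9% of promoters with an island in all 4 libraries. For H3K27me3 this holds at 4 of 6, as at 25.3% of such promoters, while the cKO mean is lower at all 6. The H3K27me3 ratio is furthest from 1 at Neurod1 (2.73 and 2.35 against 1.53 and 1.11, the last in a wide island).

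Density could be compared at promoters with an island in all 4 libraries. For H2AK119ub1 in neurospheres these were Neurog2, Neurog1, Neurod1, Tbr1 and Neurod2, and both cKO libraries lay below both Ctrl libraries at 5 of 5. The same was so for 30.9% of 1474 promoters, and 7.94% were higher. The Neurog1 values were 1.55, 1.37, 1.11 and 1.27, the Neurod1 values 1.65, 1.19, 0.912 and 0.921, the Tbr1 values 1.56, 1.17, 1.04 and 1.15 and the Neurod2 values 1.67, 1.59, 1.23 and 1.33. The log2 ratio ranged from -0.63 at Neurod1 to -0.29 at Neurog1. For H3K27me3 in neurospheres 4 of 6 were lower without overlap (Neurog1, Eomes, Neurod1 and Neurod2), against 25.3% of 3401 promoters that were lower and 22.1% that were higher.

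Reads were next summed over regions, each a merged run of islands that had an island in all 4 libraries of a mark and source, and tested with edgeR's quasi-likelihood test. A region's count combines its called length with its density. Of 11262 neurosphere H3K27me3 regions, none passed an FDR of 0.05 with edgeR, while 2077 (18.4%) had an unadjusted p under 0.05 and the Wald test of DESeq2 passed 734. Regions at 7 of the 10 genes entered this fit. Among them 4 were lower at an unadjusted p under 0.05. Of all regions 8.94% were lower and 9.5% higher at that p. The Neurod6 region, which the wide cKO islands joined, is described below without a test. The median log2 fold change was -0.71 over the 7 and 0.01 over all regions.

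The Neurod6 region (chromosome 6, 55668401 to 55781200) had 449, 259, 2963 and 5134 counts over 11.6, 6.6, 77.6 and 109.6 kb of islands. Both cKO libraries thus held several times the counts of both Ctrl libraries, over a longer called length. The region was joined by the wide cKO islands and takes in Ctrl islands that do not reach the gene, so the log2 fold change of its counts (3.54, SE 0.32) largely restates the called lengths and is given as a description, with no test.

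The Neurog2 region (chromosome 3, 127620001 to 127678400, which also overlaps Alpk1) had 5640, 4015, 1990 and 1761 counts over 57.8, 51, 37.8 and 35.8 kb. The log2 fold change was -1.34 (SE 0.19, edgeR adjusted p = 0.175, rank 34), and over the alternatives the adjusted p ran from 0.0014 (DESeq2) to 0.601. Without cKO replicate 1 it was 0.0081, in a fit in which 2762 of 15558 regions (17.8%) passed FDR 0.05 and 12.8% passed as lower.

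At Neurod2 the counts were 8622, 7276, 5006 and 4671 (log2 fold change -0.71, SE 0.17, edgeR adjusted p = 0.191). Neurog1, whose region also reaches Cxcl14, had 7784, 4601, 3601 and 3615 (-0.74, SE 0.18, adjusted p = 0.193 by edgeR). Both had every cKO count below every Ctrl count. The estimate at Eomes was -1.07 (SE 0.38, edgeR adjusted p = 0.253) and that at Neurod1 -0.52 (SE 0.29, edgeR adjusted p = 0.382). Tbr1 had 1417, 990, 1040 and 1803 counts and an estimate of 0.25 (SE 0.28, edgeR adjusted p = 0.648). Its called length was 12, 12.8, 19.2 and 34.2 kb. Without cKO replicate 1, Eomes (-1.90, adjusted p = 0.00874), Neurod2 (-1.05, adjusted p = 0.0244) and Neurog1 (-1.02, adjusted p = 0.0296) passed the FDR threshold of edgeR, which in that fit 17.8% of all regions did.

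**Figure D4:**
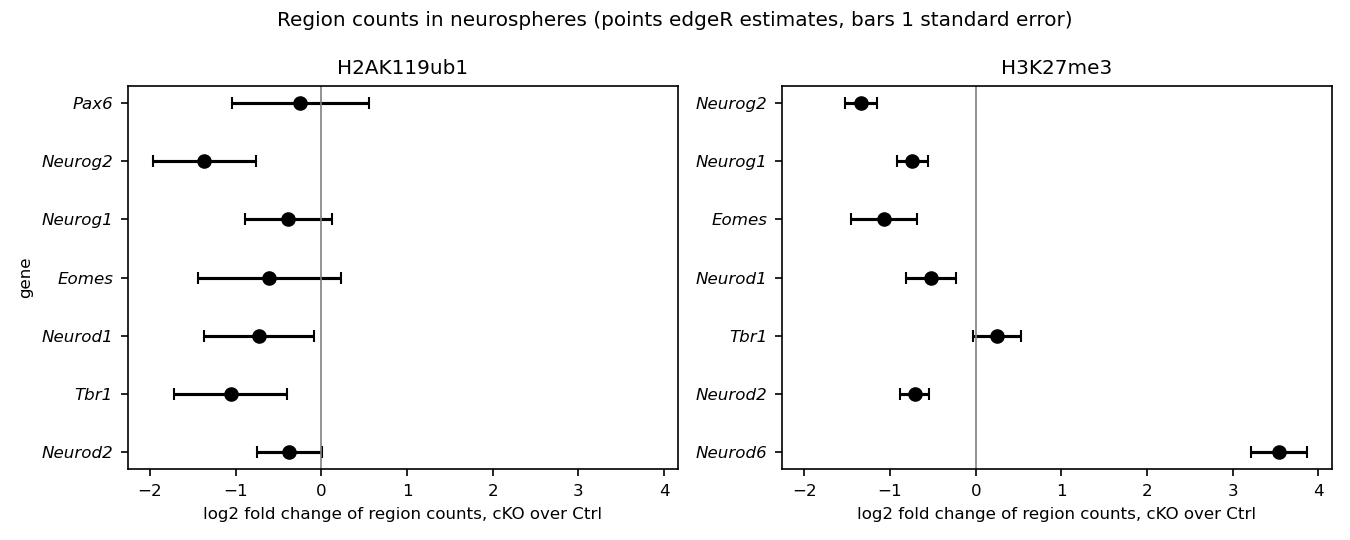
Log2 fold change of island counts per region in neurospheres, cKO over Ctrl (edgeR estimate as a point, 1 standard error as a bar), for the members with a region called in all 4 libraries. All 7 H2AK119ub1 estimates lie below 0 with Neurog2 lowest (-1.37), though those of Pax6 and Eomes turned in sign under some alternatives. In H3K27me3 Neurod6 stands at 3.54, over a much longer called length in cKO, while Neurog2 is lowest at -1.34. Neurod6 is shown as a description without a test, and none of the other regions shown passed an FDR of 0.05.

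For neurosphere H2AK119ub1 all 7 regions tested had estimates below 0, with a median of -0.61 beside 0.01 over 6060 regions, of which 48.9% were below 0. None of the 7 had an unadjusted p under 0.05 in edgeR, where 1.67% of all regions did, and none of the 6060 passed FDR 0.05 (DESeq2's Wald test passed 32). Neurog2 came nearest. Its region held 1616, 1405, 391 and 554 counts over 25.2, 31.4, 11 and 16.8 kb (log2 fold change -1.37, SE 0.61, edgeR adjusted p = 1.00), and it passed the threshold only when Ctrl replicate 1 was left out (-1.76, adjusted p = 0.000313). In that fit 789 of 6578 regions (12%) passed, and 1.54% passed as lower. The estimates at the other 6 were -1.06 at Tbr1, -0.73 at Neurod1, -0.61 at Eomes, -0.39 at Neurog1, -0.37 at Neurod2 and -0.25 at Pax6. At Pax6 and Eomes some libraries entered only through islands away from the promoter. Promoter coverage was 100%, 0%, 97.5% and 100% at Pax6 and 100%, 0%, 0% and 95.3% at Eomes. Both estimates turned in sign under some alternatives (-0.92 to 1.27 at Pax6 and -2.13 to 0.16 at Eomes).

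In hippocampus fewer member regions could be tested. For H3K27me3 they were those of Neurod2, Neurog1, Pax6 and Eomes, with estimates from -0.79 to -0.15 and edgeR p from 0.170 to 0.707, where 3.53% of 4387 regions had p under 0.05. For H2AK119ub1 the estimates were -0.78 at Prox1, -0.56 at Pax6, -0.12 at Neurod2 and, in the other direction, 0.78 at Neurog1, which stayed between 0.40 and 1.09 over the alternatives. Their p ran from 0.208 to 0.851 in edgeR, and 1.09% of 2750 regions had p under 0.05. Neurosphere H3K36me2 could be tested at Pax6 only (-0.48, edgeR adjusted p = 0.962; 2.14% of regions had p under 0.05). No region of these 3 comparisons passed FDR 0.05 with edgeR, and 155, 30 and 736 had an unadjusted p under 0.05 (DESeq2's Wald test passed 3, 0 and 83).

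Whether the cKO effect differed between sources was tested as an interaction over 8 libraries. Of 5 member regions for H3K27me3, that of Tbr1 had an interaction of 2.44 on the log2 scale (neurosphere effect minus hippocampus effect, SE 0.71, edgeR adjusted p = 0.330). Its unadjusted p was under 0.05, as were those of 10.9% of 2373 regions. The adjusted p ranged from 0.288 to 0.497 over the alternatives. The Tbr1 region spans 34.6 kb, most of it the wide island of neurosphere cKO replicate 2 (34.2 kb). Hippocampus cKO replicate 1 had 0% at the promoter and entered through a 2.8 kb island 26.07 kb from the start. The estimate therefore depends on how islands were joined and does not describe the promoter. Neurog2 in H2AK119ub1 had an interaction of 0.02 (SE 0.85, adjusted p = 0.998 by edgeR). With a standard error of that size, the test does not show that the effect was alike in both sources.

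Neurospheres and hippocampus were also compared over both genotypes, 4 libraries against 4. At promoters no member separated for any mark, and the smallest exact p this design gives is 0.0286. Neurog2 came near, with H3K27me3 at 94.2% ± 9.57 (SD, n = 4) in neurospheres and 21.2% ± 42.5 in hippocampus (exact permutation p = 0.0571, adjusted p = 0.705 over all promoters). Its H2AK119ub1 was 80.8% ± 30.1 and 22.1% ± 15.6 (SD, n = 4, exact permutation p = 0.0571, adjusted p = 1). Non-overlap with higher coverage in neurospheres was found at 5.85% of all promoters for H3K27me3 and 1.73% for H2AK119ub1. Islands cover more of the genome in most neurosphere libraries. When they were trimmed to the same covered length, Neurog2 did not separate either, while Pax6 (both Polycomb marks) and Tbr1 (H3K27me3) did, counting either direction. The shares above are for untrimmed islands. No share of all promoters was computed after trimming, so these separations have no background.

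Over gene bodies H3K27me3 was higher in all 4 neurosphere libraries than in all 4 hippocampus libraries at Neurog2 and Neurod1, where the background was 10.7% of bodies. Neurog2 had 81.4% ± 13.8 against 16.7% ± 33.4, and Neurod1 had 82.5% ± 13.0 against 43.1% ± 29.3 (SD, n = 4, exact permutation p = 0.0286 each, adjusted p = 0.231). H3K36me2 was higher in neurospheres over the bodies of Eomes (51.1% ± 23.5) and Prox1 (7.12% ± 4.35) than in hippocampus (0% in all 4 libraries for both; exact permutation p = 0.0286, adjusted p = 0.167, n = 4). Such separation was seen at 16.6% of bodies.

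**Figure D5:**
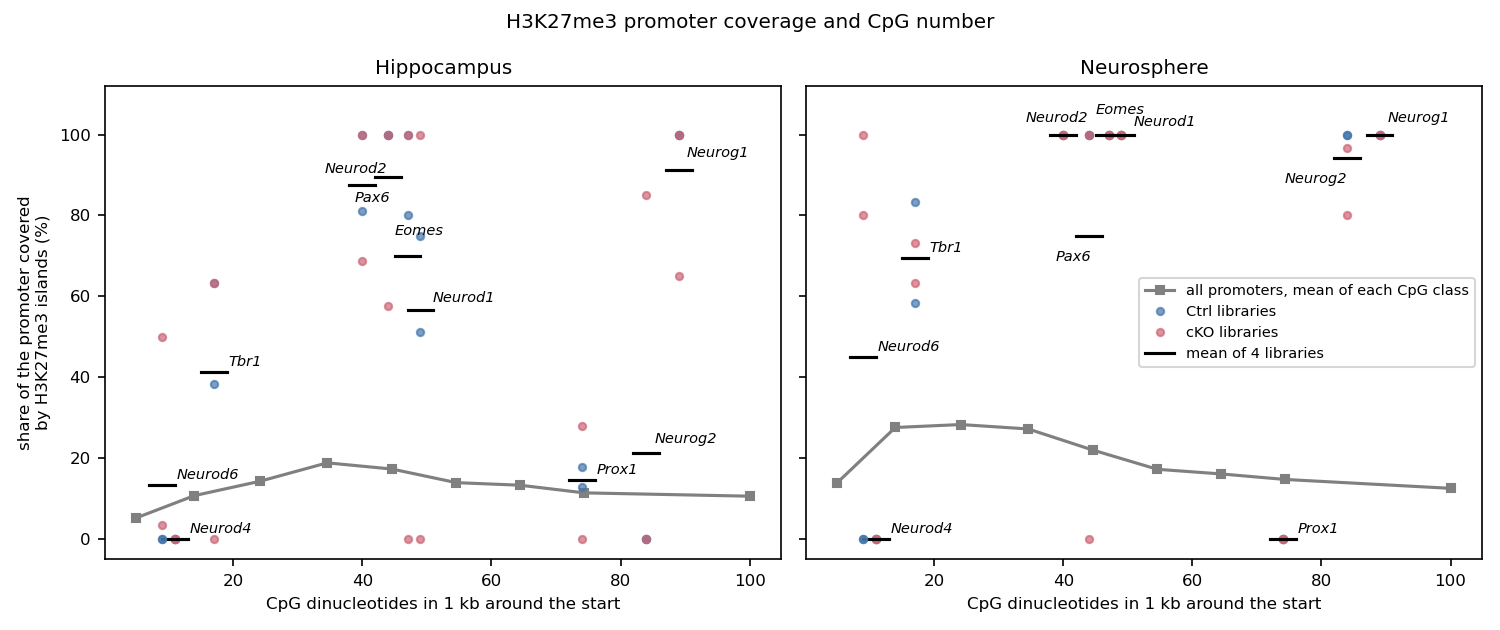
H3K27me3 promoter coverage (%) against the number of CpG dinucleotides in 1 kb around the start, in hippocampus and neurospheres; points are single libraries (blue Ctrl, red cKO), black bars the mean of 4 libraries per gene, and grey squares the mean over all promoters in classes of CpG number. Most members lie above the grey line, with Neurod4 (11 CpG) at 0% in both panels and Prox1 (74 CpG) at 0% in neurospheres.

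Coverage did not follow CpG number in a single direction among these genes. Averaged over 4 libraries, neurosphere H3K27me3 covered 100% of the Neurog1, Neurod1, Eomes and Neurod2 promoters, which hold 89, 49, 47 and 40 CpG, and 0% at Prox1 with 74 and at Neurod4 with 11. Over all promoters the mean was highest, 28.3%, in the class of 20 to 29 CpG and 12.5% in the class of at least 80. In hippocampus it was highest, 18.8%, at 30 to 39 CpG. Neurod6, with the fewest CpG of the 10 genes (9), is the member at which H3K27me3 was found in cKO libraries and not in Ctrl libraries. This is a description of 10 genes in shared libraries.

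The pattern of each gene over 48 values (promoter and body coverage in 24 libraries) was compared with that of all other genes by the mean absolute difference. The nearest to Neurod2 was Mafa (1.56 points), to Neurog1 Hoxd10 (2.38 points), to Neurod1 Dmrt3 (6.89 points), to Neurog2 Wfdc10 (7.17 points), to Neurod6 Prr23a1 (7.66 points) and to Prox1 Id2 (8.02 points). Pax6 and Tbr1 had no near match, with Pfdn4 and Sgk2 at 14.6 points each. The match of Eomes was Alox12b (11.8 points), and that of Neurod4, which had almost no islands, was Zfp397 (0.020 points). Within the 10 genes Neurog1 and Neurod2 were the closest pair, at 7.30 points. Outside the list, 162 genes were nearer to Neurog1 than Neurod2 was, and 131 were nearer to Neurod2 than Neurog1 was.

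Other genes of the lineage were taken from a list of 30 markers of radial glia, intermediate progenitors and granule neurons. In neurospheres 6 of their promoters were lower in H3K27me3 in cKO without overlap and 0 higher, beside 5.34% and 3.43% of all promoters, and for H2AK119ub1 4 were lower and 1 higher, beside 3.75% and 2.13%. Rbfox3, a neuronal splicing factor, had H3K27me3 over 100%, 100%, 0% and 0% of its promoter and Bcl11b, a zinc finger factor of the granule layer, over 100%, 100%, 25.0% and 0%. Insm1, a zinc finger factor of intermediate progenitors, was lower for H3K27me3 (100%, 100%, 83% and 0%) and for H2AK119ub1 (100%, 88%, 28% and 18%). Gfap, of astrocytes and radial glia, had 100%, 97.2%, 52.2% and 0% of H3K27me3. Hes1, the Notch effector, had 100%, 65%, 25.4% and 15.4% of H2AK119ub1, and Emx2 had 100%, 35%, 0% and 24.3%. In hippocampus none of the 30 promoters separated for either Polycomb mark, where 0.483% (H2AK119ub1) and 0.793% (H3K27me3) of all promoters were lower and 0.579% and 3.62% higher. At 2 of the 30, H3K36me2 was higher in cKO there without overlap (0.948% of promoters). Among these, Mfng, a Notch glycosyltransferase, had 0%, 0%, 91.85% and 31.85%. In neurospheres 2 of the 30 were lower in H3K36me2 and 0 higher, beside 2.76% and 2.08% of all promoters.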

How the data were processed

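ChIP-seq libraries of H2AK119ub1, H3K27me3 and H3K36me2 (24 of 36 samples) were analysed, and the values of the 12 inputs were not used here. The authors trimmed reads with cutadapt, aligned them to mm10 with Bowtie2 2.4.5, removed duplicates with samtools and called islands in each library against input with SICER (window 200 bp, gap 600 bp, FDR 0.01; its version is not given in the sources used here). The deposited values are raw counts of reads per island, not normalised, and places outside islands have no value. Counts carry no molecular identifiers.

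Groups and replicate numbers came from the labels. Coordinates are given from 1. Islands on the mitochondrial chromosome (9) were left out. Promoters (2 kb on each side of the start) and gene bodies of 21938 protein-coding genes (GENCODE vM21) were intersected with islands in Python 3.11.15 (numpy 2.4.6, pandas 2.3.3). Coverage was compared by two-sided exact permutation tests (scipy 1.17.1), with Benjamini-Hochberg adjustment over all promoters or bodies between sources. Counts per merged region called in all libraries compared were tested with edgeR 4.0.16 (R 4.3.3, TMM, quasi-likelihood) and, as an alternative, DESeq2 1.42.0, with Benjamini-Hochberg adjustment over all regions. Code was tested on simulated data. The 10 genes are named throughout; of the other lineage genes, those whose coverage changed by at least 50 points without overlap are named. The genes and lists were chosen with earlier results of these data known. Relative density and the crossed replicate numbers were added after seeing the data.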

Additional observations from a re-analysis of the deposited data

Results flagged for a closer look

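Neurod2 values lay in opposite directions in the 2 sources: relative density of its H3K27me3 promoter island had a log2 ratio of cKO to Ctrl of 0.49 in hippocampus, where each cKO library lay above the Ctrl values, and of -0.073 in neurospheres, where each lay below them. Such non-overlap was common: 24.7% of 1832 promoters were higher in hippocampus and 25.3% of 3401 were lower in neurospheres. The difference of relative density itself was not tested. The counts of the region around Neurod2 gave an interaction of -0.11 on the log2 scale (SE 0.46, edgeR adjusted p = 0.955).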

How the results depend on the processing

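With a 1 kb window, H2AK119ub1 at the Neurog2 promoter in hippocampus was no longer lower in cKO (cKO minus Ctrl 0.05 points), so that over both sources 0 members reached the smallest stratified p for H2AK119ub1. For H3K27me3, 0 did with a 1 kb window and 0 with equal covered length, which removes Neurod6 in hippocampus. In the comparison of sources, where no member promoter separated, equal covered length gave 1 for H2AK119ub1 and 2 for H3K27me3. Ctrl libraries alone gave 3, 3 and, for H3K36me2, 2, and cKO libraries alone gave 2 and 1 for H2AK119ub1 and H3K27me3. Leaving out hippocampus cKO replicate 1 gave 1 for H3K27me3. Ctrl or cKO libraries alone are 2 against 2, where the exact permutation p cannot go below 0.333. No share of all promoters was computed for these settings, so the counts have no background and do not decide whether the sources differ at these genes.

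Regions past FDR 0.05 numbered 0 in every comparison with edgeR. The Wald test of DESeq2 gave 3 for H3K27me3 and 17 for H3K36me2 in hippocampus, and 32, 734 and 83 for H2AK119ub1, H3K27me3 and H3K36me2 in neurospheres. The labels do not say whether a replicate number marks a shared litter, batch or day, and deviations of same-numbered libraries correlated at -0.32 to 0.33 over the 6 comparisons. A replicate block gave 9 regions for hippocampus H3K27me3, none at a member. Crossed replicate numbers gave 5 there. Leaving out each library in turn, where the lone sample of a group is assumed to vary like the other group, gave 0 to 34 for hippocampus H3K27me3 and 0 to 789, 0 to 2762 and 0 to 2161 for the 3 marks in neurospheres, and 0 in the other comparisons.

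The median differences over the 10 genes then ranged, for promoters and bodies, from -50 to 19.8 and -33.1 to 29.995 points (hippocampus H2AK119ub1), -28.4 to 11.3 and 0 to 8.21 (hippocampus H3K27me3), -11.3 to 0 and -13.0 to 0.52 (neurosphere H2AK119ub1) and -4.7 to 0 and -1.52 to 0 (neurosphere H3K36me2).

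Region estimates that had not passed the threshold turned in sign as follows on the log2 scale. With regions called in at least 2 libraries, Neurod2 hippocampus H2AK119ub1 became 0.055. Pax6 neurosphere H2AK119ub1 became 0.14 with the replicate block and 0.13 with crossed numbers. Leaving out single libraries gave -2.20 to 0.029 (Prox1) and -0.86 to 0.43 (Neurod2) for hippocampus H2AK119ub1, -0.63 to 0.18 (Neurod2) and -0.69 to 0.28 (Pax6) for hippocampus H3K27me3, -0.92 to 1.27 (Pax6) and -2.13 to 0.16 (Eomes) for neurosphere H2AK119ub1, and -0.064 to 0.32 (Tbr1) for neurosphere H3K27me3. The causes were not tested.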
